A study of Mus musculus with 12 samples.

Results

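The 10 genes described here are Abca1, Abcg1, Apoe, Apod, Clu, Nr1h2, Nr1h3, Mylip, Srebf1 and Scd1. They export cholesterol, carry it outside the cell, or are known targets of the liver X receptors (LXR), and Nr1h2 and Nr1h3 encode these receptors. They were picked by gene symbol, with the values of siEgr2 against siNC in these same libraries already known. Their differences between the groups are therefore given as a description, without a test. They make up 10 of the 56860 named genes in the table, and 10 of 10 were among the 16600 genes with enough counts to be compared.

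The libraries came from primary oligodendrocytes (OLs) of C57BL/6J mice, the cells that make myelin in the brain. Cells carrying the surface antigen O4 were captured with microbeads from the cortex of newborn pups (P6 to P7), while the labels give the medial prefrontal cortex as the tissue. They were grown with PDGF-AA and then matured with insulin, triiodothyronine and ciliary neurotrophic factor, in both groups. The siEgr2 group (6 libraries) received a reagent against the transcription factor Egr2 and the siNC group (6 libraries) a scrambled control, 48 h before harvest. The sources call this reagent an siRNA in some places and an interference plasmid in others. No source used here says whether the libraries of a group came from separate cultures or animals, so p-values measure only the spread between these libraries, which may be technical. Some libraries of a group were closer to each other than to the rest. With structural RNA genes left out, chi-square per gene was 7.55 to 8.78 for siEgr2 replicates 1 with 2, 3 with 5 and 4 with 6, and 10.02 to 13.2 for the 12 other siEgr2 pairs. In siNC it was 13.4 and 14.2 for replicates 1 with 5 and 3 with 6, and 16.7 to 31.8 for the 13 other pairs. No label explains these pairs, and if paired libraries share a culture, every p-value below that counts 6 libraries a group is too small.

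Cells cannot break down the sterol ring, and surplus cholesterol is exported. The transporters Abca1 and Abcg1 pass it to lipid-poor apolipoproteins and lipoprotein particles, in the brain mostly those built on Apoe, which come largely from astrocytes. When oxysterols build up, LXR paired with a retinoid X receptor switches on these transporters together with Mylip, which removes the LDL receptor, and Srebf1, which drives fatty acid synthesis. Oligodendrocytes need large amounts of cholesterol for myelin, and some of it reaches them from astrocytes.

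Depth and ribosomal RNA separated the groups in the same way as the treatment. The total was 28682946 to 39383014 counts per siNC library (median 31277547) and 8034251 to 16683677 per siEgr2 library (median 13932447). The 18S ribosomal RNA gene Rn18s-rs5 took 0.142% to 1.06% of the counts in siNC (median 0.667%) and 10.5% to 16.5% in siEgr2 (median 13.8%). By exact permutation, two-sided, each of these differences had p = 0.00216, the smallest p that 6 against 6 libraries can give. The parts that depth and ribosomal RNA may have in the differences below cannot be told apart from that of the treatment. All levels are CPM, the counts of a gene relative to the TMM-scaled total of its library, unless another scale is named.

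Egr2 itself, at chromosome 10 from 67535475 to 67542188 in GRCm38, was at 3.89 CPM in the lowest siNC library, 5.19 CPM at the median and 7.06 CPM in the highest. In siEgr2 the lowest, median and highest values were 2.22, 3.93 and 4.86 CPM. The groups overlapped, and 3 of 6 siEgr2 libraries lay below every siNC library. The log2 fold change was -0.51 (SE 0.21, 95% interval from -0.92 to -0.10), and the quasi-likelihood test of edgeR, adjusted by Benjamini-Hochberg over all tested genes, gave an adjusted p of 0.0981, which missed the threshold. Over 22 other settings its adjusted p ran from 0.0144 to 0.214, and Egr2 passed both thresholds in 1 of them, library size in place of TMM, at -0.70.

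Of the 10 genes, 6 were lower in every siEgr2 library than in any siNC library: Abca1, Abcg1, Apoe, Clu, Srebf1 and Scd1. Their mean levels in siEgr2 were between 53.5% (Abca1) and 68.5% (Scd1) of those in siNC. As a count only, and not as a test of them, the same 6 lie among the genes past the thresholds used for all genes, an adjusted p under 0.05 in edgeR together with a log2 fold change beyond 0.5 in either direction. Among the 16600 tested genes, 1281 met these (7.72%), 844 of them lower (5.08%) and 437 higher in siEgr2 (2.63%), and 7.00% had every siEgr2 library below every siNC library. Nothing is read from the members' count, alone or against these shares, since the members were chosen with this contrast known. Apod, Nr1h2, Nr1h3 and Mylip overlapped between the groups. Nr1h3 met the thresholds in 3 of 22 other settings, where the members' count was 7. The median log2 fold change was -0.57 over the 10 members and 0.0046 over all tested genes.

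**Figure D1:**
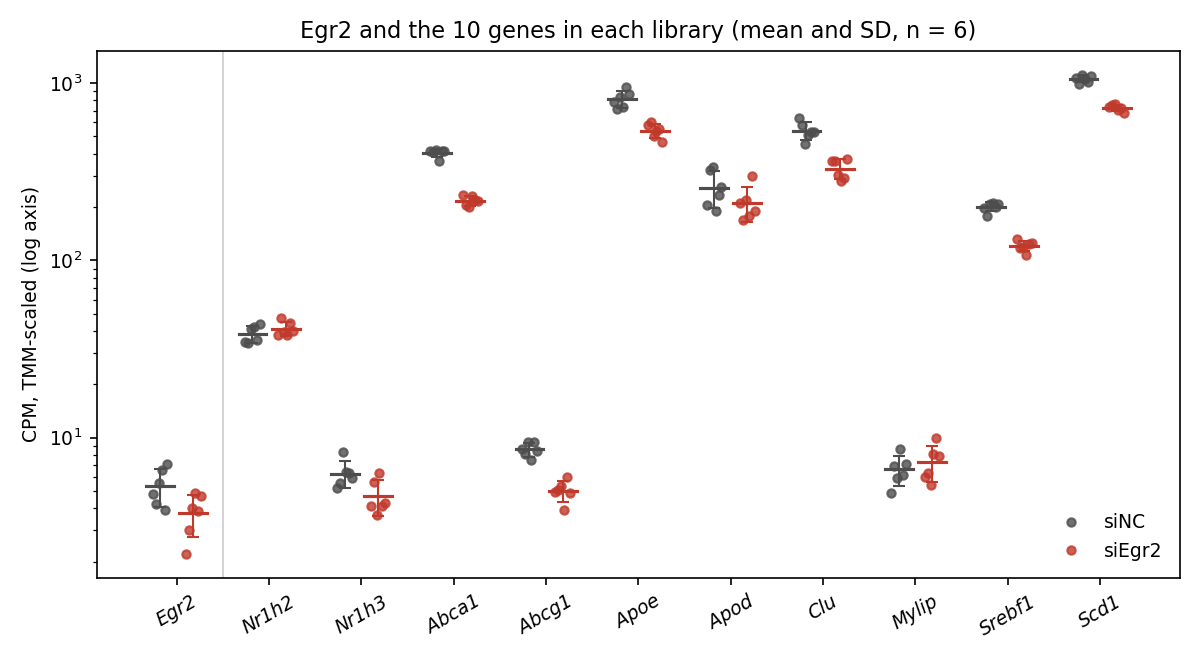
Each point is 1 library, with the TMM-scaled CPM on a log axis, siNC in grey and siEgr2 in red, and the bars give the mean and SD of 6 libraries. The siEgr2 points of Abca1, Abcg1, Apoe, Clu, Srebf1 and Scd1 lie below all siNC points of the same gene, while those of Egr2, Nr1h2, Nr1h3, Apod and Mylip overlap.

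Both receptors were detected in every library. Nr1h2 encodes LXRβ, the form found in most cell types, and lies on chromosome 7 from 44549616 to 44553951 in GRCm38. Its level in siNC was 34.2 CPM in the lowest library, 38.3 at the median and 43.8 in the highest, and in siEgr2 the same 3 values were 37.8, 39.7 and 47.1 CPM. The ranges overlapped, with the siEgr2 mean at 107% of the siNC mean and a log2 fold change of 0.092 (SE 0.080). With single libraries left out, this value ran from 0.046 (without siEgr2 replicate 2) to 0.13 (without siNC replicate 6). Nr1h3 encodes LXRα, the form best known from liver and macrophages, on chromosome 2 from 91184061 to 91202834. It was at 5.20, 6.09 and 8.31 CPM (lowest, median, highest) in siNC and at 3.64, 4.19 and 6.35 CPM in siEgr2. Of the siEgr2 libraries, 4 of 6 lay below every siNC library and the others within the siNC range, for a log2 fold change of -0.42 (SE 0.17). Behind these levels are 179 to 258 counts in each siNC library but 32 to 85 in each siEgr2 library. The log2 fold change of Nr1h3 depended on the setting. It was -0.60 with library size in place of TMM and -0.67 after thinning of every library to the smallest total. Without siNC replicate 3 it was -0.32, and without siEgr2 replicate 4 it was -0.53. As a count only, Nr1h3 met both thresholds used for all genes in 3 of 22 other settings. These were library size, thinning and the fit without siEgr2 replicate 4.

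Of the 2 transporters, Abca1 loads cholesterol and phospholipid onto lipid-poor apolipoproteins and lies on chromosome 4 from 53030787 to 53159895, on the minus strand. Its level in siNC was 362 CPM in the lowest library, 412 at the median and 418 in the highest. In siEgr2 the lowest was 199.6 CPM, the median 217 and the highest 234. The groups were far apart for their spread, at 405 ± 21.2 against 217 ± 13.6 CPM (mean ± SD, n = 6 each). The log2 fold change of -0.90 (SE 0.047) was the most negative of the 10 members. Among the siNC libraries 5 lay within 411 and 418 CPM, and replicate 4 was lower. Without it the log2 fold change was -0.93.

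Abcg1, which exports cholesterol to particles that already hold lipid, lies on chromosome 17 from 31057675 to 31117988. It was much the scarcer transporter, at 7.49, 8.51 and 9.47 CPM (lowest, median, highest) in siNC. In siEgr2 it was at 3.89, 4.98 and 6.02 CPM, so that the highest siEgr2 library stayed under the lowest siNC library. The log2 fold change was -0.78 (SE 0.12), on 47 to 86 counts per siEgr2 library.

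The 3 apolipoproteins were abundant. Apoe, the main lipid carrier between brain cells, lies on chromosome 7 from 19696109 to 19699188. It was at 717 CPM in the lowest siNC library, 809.9 at the median and 951 in the highest, and at 466, 544 and 605 CPM in siEgr2. The gap between the highest siEgr2 and the lowest siNC library was wide, and the log2 fold change was -0.59 (SE 0.076). Clu encodes clusterin, also named apolipoprotein J, a secreted chaperone, on chromosome 14 from 65968483 to 65981547. It was at 452, 532 and 636 CPM in siNC and at 279.8, 333 and 375 CPM in siEgr2 (lowest, median, highest). No library of one group reached the range of the other, and the log2 fold change of Clu was -0.71 (SE 0.095). Apod, a lipid carrier of the lipocalin family known from glia, lies on chromosome 16 from 31296192 to 31314808. It varied widely between libraries of a group, from 189 through 246 to 334 CPM in siNC and from 169 through 201 to 300.4 CPM in siEgr2. Most of the 2 ranges overlapped, with 2 of 6 siEgr2 libraries below every siNC library. Its log2 fold change was -0.29 (SE 0.18). With library size in place of TMM, the value of Apod was -0.46.

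Mylip encodes the ubiquitin ligase IDOL, which sends the LDL receptor and its relatives for degradation, on chromosome 13 from 45389742 to 45412022. It was scarce, at 4.88, 6.56 and 8.66 CPM (lowest, median, highest) in siNC and at 5.44, 7.12 and 9.99 CPM in siEgr2. No siEgr2 library lay below the siNC range, and the log2 fold change was 0.13 (SE 0.17). Mylip, known as an LXR target like the transporters, thus had a value on the other side of 0, though smaller than its SE. Its difference from the transporters was not tested. Single libraries moved the value, to 0.021 without siEgr2 replicate 5, 0.054 without siNC replicate 1 and 0.22 without siNC replicate 4. After thinning to the smallest total it was 0.24. The side of 0 depended on the scaling. With library size in place of TMM, the log2 fold changes of Mylip and Nr1h2 were -0.058 and -0.089, and the same setting moved the median of all genes from 0.0046 to -0.18. It also moved the share of called genes that were lower from 65.9% to 88.0%.

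Srebf1 encodes SREBP-1, the transcription factor of fatty acid synthesis, and lies on chromosome 11 from 60199089 to 60222581 on the minus strand. It was at 179 CPM in the lowest siNC library, 205 at the median and 210.2 in the highest, and at 107, 121 and 131 CPM in siEgr2. The libraries of a group lay close together and the groups well apart, with a log2 fold change of -0.74 (SE 0.052). Scd1 encodes the desaturase that makes oleate from stearate, a target of both SREBP-1 and LXR, on chromosome 19 from 44394455 to 44407879. It had the highest CPM of the 10 members, at 993, 1060 and 1116 CPM (lowest, median, highest) in siNC and at 675, 728 and 763 CPM in siEgr2. Its groups were separated as well, by a log2 fold change of -0.55 (SE 0.037), which was the smallest SE of the 10. Of the 50-base words in the transcripts of Scd1, 4.56% also occur in Scd2, Scd3 or Scd4, so a small part of its counts is uncertain. For the other 9 members this share was at most 0.315%. Srebf1 shares 1.17% of its exon bases with Mir6922 on the same strand and 1.93% with Rai1 on the opposite strand, and Nr1h3 shares 1.35% with Gm13783. The handling of such reads is not given in the sources used here.

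Levels can be set against each other only per length. Per kilobase of merged exons, the mean level in siNC was highest for Apoe (381 CPM per kb), followed by Scd1 (216), Clu (157), Apod (99.9), Abca1 (39.1), Srebf1 (35.7), Nr1h2 (11.5), Nr1h3 (2.49), Mylip (2.05) and Abcg1 (1.18). Neighbours in this order did not overlap over the 6 siNC libraries, apart from Abca1 with Srebf1 and Nr1h3 with Mylip. Without siNC replicate 4, Abca1 and Srebf1 no longer overlapped and 1 overlapping pair was left. With the longest annotated transcript as the length, Clu came before Scd1 and Srebf1 before Abca1, and the other 6 kept their ranks. In siEgr2 the mean of Abca1 was 20.9 CPM per kb and that of Srebf1 was 21.4, with overlapping ranges. Nr1h2, at 12.3 CPM per kb, was the receptor with the higher level in siEgr2 too, beside 1.86 for Nr1h3.

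Within groups, the members were compared by how they deviated together. Over the deviations of log2 CPM from the group means in the 12 libraries, Pearson's r between 7 members of at least 10 CPM ran from -0.42 (Abca1 with Nr1h2) to 0.53 (Nr1h2 with Scd1) in 21 pairs. Higher values were found outside the set, as the extremes of 10393 genes compared, with all points sharing the same 12 libraries and their depths. The genes most like Abca1 were Zdhhc9 (r = 0.96) and Adcy1 (0.88). Those most like Scd1 were Mest (0.93) and Flot2 (0.92), and those most like Nr1h2 were Sdhc (0.91) and Pak1ip1 (0.90). Bag1 (0.89) and Arl4c (0.88), itself a known LXR target, were nearest to Srebf1. Bloc1s4 (0.88) and Ublcp1 (0.85) were nearest to Clu, Clgn (0.88) and Anxa7 (0.87) to Apod, and Cog7 (0.87) and Gm5620 (0.86) to Apoe.

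The other genes of the pathway were compared in 8 lists. The first 5, which hold 61 genes of LXR signalling, transport, uptake and storage outside the members, had 51 tested genes. Of these, 8 fell (15.7%, against 5.08% of all tested genes) and 0 rose, and the median log2 fold change was -0.14. The lists, like the members, were chosen with earlier results of these data known. Nothing is therefore read from this share, and the p-values of list genes below are a description. At an unadjusted p under 0.05, 25 were lower and 0 higher, and DESeq2 called 9 lower and 0 higher, limma-voom 8 and 0. Over all 16600 tested genes, 2803 were lower and 2504 higher at an unadjusted p under 0.05, DESeq2 called 920 lower and 557 higher, and limma-voom 873 and 432. With library size in place of TMM, 14 fell. These counts share their libraries, and the depth and ribosomal RNA that go with the groups, with the members. The summed astrocyte markers were also lower in siEgr2, by 0.60 on the log2 scale without overlap, and their part in the falls of these lists was not tested.

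Other LXR targets held 3 of these 8 falls, in 7 tested of 14 listed genes, with a median log2 fold change of -0.49. Pltp, which moves phospholipid between lipoproteins, was at 12.6, 13.5 and 17.2 CPM (lowest, median, highest) in siNC and at 5.94, 6.92 and 10.04 CPM in siEgr2. No siEgr2 library reached the siNC range, and Pltp fell by 0.91 on the log2 scale (SE 0.13, adjusted p = 1.43e-04 by edgeR). Lpl, which frees fatty acids from lipoproteins, fell from 27.5 ± 2.88 to 16.5 ± 1.45 CPM, a log2 fold change of -0.74 (SE 0.087, adjusted p = 1.74e-05 by edgeR). The phagocytic receptor Mertk, named after its values were seen because it lies under 10 CPM, fell by 1.11 (SE 0.22). Smpdl3a (log2 fold change -0.49) and Lpcat3 (-0.38), also named after their values were seen, met the p threshold and missed the fold change threshold. Smpdl3a met both thresholds in 7 of 22 other settings and Lpcat3 in 1. Fasn, the fatty acid synthase and the gene of the list with the highest CPM, was at 934 ± 38.0 CPM in siNC and 943 ± 54.1 CPM in siEgr2. Its log2 fold change was 0.014 (SE 0.039), with a 95% interval from -0.063 to 0.090, and it was below 0 in 4 of 22 other settings.

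Among 16 tested transporters 3 fell and 0 rose, with a median of -0.10, and at an unadjusted p under 0.05 there were 6 lower and 0 higher, while DESeq2 and limma-voom each called 3 lower and 0 higher. Abca5 fell from 22.4 ± 1.31 to 15.7 ± 3.12 CPM, with a log2 fold change of -0.51 (SE 0.11) close to the threshold. It met both thresholds in 16 of 22 other settings and lost its call without siNC replicate 1 or 3, without siEgr2 replicate 1, 2 or 6, and after thinning to the smallest total, where its value was -0.35. The other 2 falls, named after their values were seen, were those of Tspo, a mitochondrial cholesterol-binding protein (-1.11, SE 0.17), and Abca8b (-0.59, SE 0.19), both under 10 CPM. Abca8b met the thresholds in 13 of 22 other settings. Each of 5 siNC libraries (replicates 1, 2, 3, 4 and 6) and 3 siEgr2 libraries (replicates 3, 4 and 5) took its call away when left out, as did thinning to the smallest total, with -0.47 as the value nearest to 0. Abca2, known from oligodendrocytes and the transporter of the list with the highest CPM, was at 309.97 ± 10.4 CPM in siNC and 270.3 ± 20.7 in siEgr2. Its log2 fold change was -0.20.

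In the list of lipoprotein receptors and their regulators, 2 of 9 tested genes fell and 0 rose, and the median was -0.28. At an unadjusted p under 0.05, 7 were lower and 0 higher, and DESeq2 and limma-voom each called 2 lower and 0 higher. Lrp2, or megalin, was at 40.1, 47.8 and 61.0 CPM (lowest, median, highest) in siNC and at 17.2, 26.2 and 39.7 CPM in siEgr2. The groups did not overlap, and Lrp2 fell by 0.88 (SE 0.18, adjusted p = 0.00391 by edgeR). Lcat, which esterifies cholesterol on lipoprotein particles, fell from 50.6 ± 4.54 to 32.4 ± 2.13 CPM, by 0.65 on the log2 scale (SE 0.068). Lrp1, an Apoe receptor and the gene of the list with the highest CPM, had a log2 fold change of -0.28 (SE 0.053).

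No gene passed the thresholds in either direction among 10 LXR partners and coregulators (median 0.026) and 9 tested genes of sterol esterification, storage and oxysterols (median -0.30). At an unadjusted p under 0.05 in edgeR, the partners held 1 lower and 0 higher gene and the esterification list 5 lower and 0 higher. DESeq2 called 0 partners and 1 lower gene of the esterification list, and limma-voom 0 in both. Soat1, which esterifies cholesterol for storage, was at 56.0 ± 1.62 and 52.4 ± 4.10 CPM.

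The synthesis side was counted separately, and its difference from the other lists was not tested. Of its 34 tested genes 1 fell (2.94%, against 5.08% of all tested genes) and 0 rose (against 2.63%), with a median log2 fold change of -0.022. At an unadjusted p under 0.05, 7 were lower and 2 higher, and DESeq2 and limma-voom each called 1 lower and 0 higher. Among the 19 genes of sterol synthesis edgeR called 0, with 0 lower and 1 higher at an unadjusted p under 0.05 and 0 called by DESeq2 or limma-voom, and the median was 0.00097. Hmgcs1, with the highest CPM of them, was at 1518 ± 131 CPM in siNC and 1584 ± 85.1 in siEgr2. The 6 SREBP processing genes had a median of -0.056 and 0 called genes by edgeR, DESeq2 or limma-voom, with 1 lower and 1 higher at an unadjusted p under 0.05. Srebf2, the relative of Srebf1 that drives sterol synthesis, was at 485 ± 52.7 and 499.7 ± 63.1 CPM, with a log2 fold change of 0.043 (SE 0.096). Srebf2 was below 0 in 3 of 22 other settings, library size only among them at -0.14, and Srebf1 was below 0 in 22 of 22.

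Genes of fatty acid desaturation and elongation had a median of -0.30 over 9 tested genes, 1 of which fell and 0 rose. This list also holds Acaca (-0.16) and Acly (0.0061), named after their values were seen, whose enzymes supply substrate and neither desaturate nor elongate. At an unadjusted p under 0.05, 6 were lower, Acaca among them, and 0 higher, and DESeq2 and limma-voom each called 1 lower and 0 higher. The fall was that of Scd3 (-2.00, SE 0.60), a relative of Scd1 at 1.57 CPM in siNC, named after its values were seen. Its groups overlapped, 3 of 6 siEgr2 libraries had 0 counts of it, and after thinning to the smallest total it had too few counts to be tested. Fads2 (-0.41, SE 0.028), Elovl5 (-0.30, SE 0.037) and Fads1 (-0.30, SE 0.030), also named after their values were seen, met the p threshold without reaching the fold change threshold, with every siEgr2 library below every siNC library. Scd2, the desaturase gene of the list with the highest CPM, was at 1856 to 1969 CPM in 5 siNC libraries and at 6657 CPM in siNC replicate 4. In siEgr2 Scd2 was at 1433 to 1600.3 CPM. Its log2 fold change was -0.82 (SE 0.34) and was -0.31 without siNC replicate 4. Scd1, which shares words with Scd2, was at 1057 CPM in that library, close to its median.

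**Figure D2:**
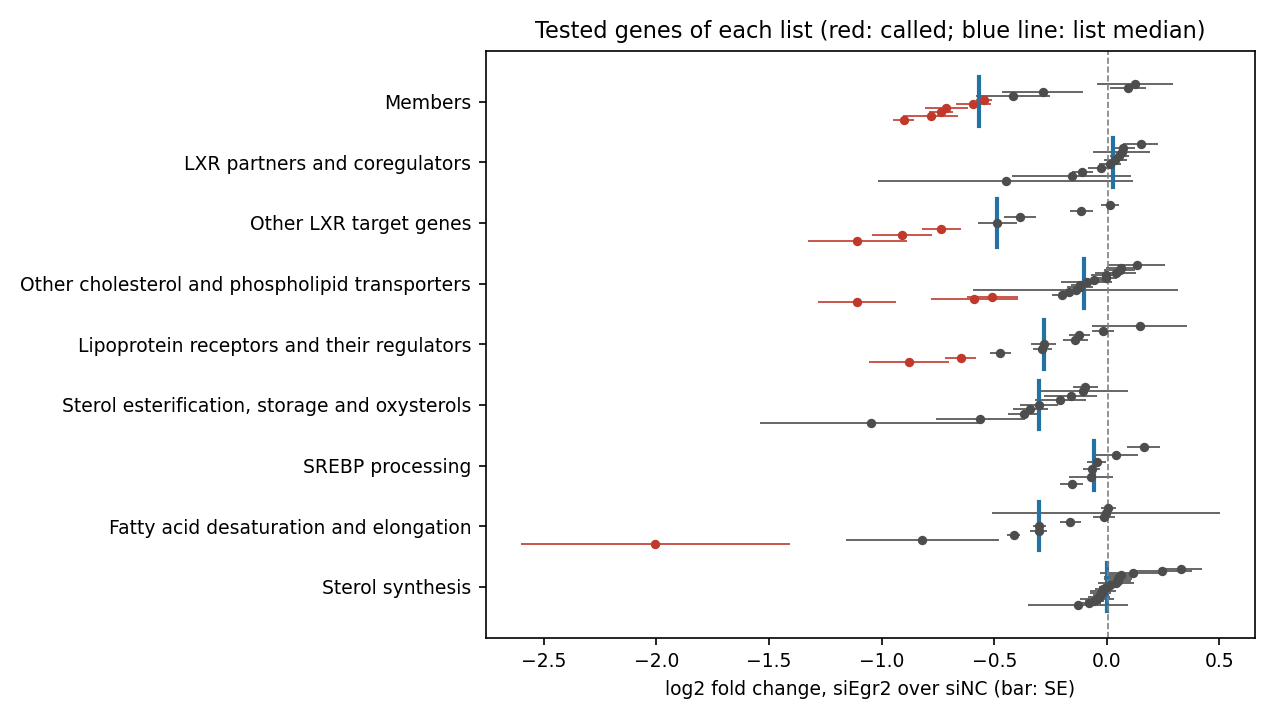
Points are the tested genes of each list, with the log2 fold change of siEgr2 over siNC on the horizontal axis, bars for the SE, red for genes past both thresholds and a blue line for the median of the list. The dashed line is the median of all tested genes, and the members and other LXR targets have medians of -0.57 and -0.49, while sterol synthesis lies at 0.00097.

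Several of the 10 genes are made by more than one brain cell type, and in bulk RNA fewer cells of a type cannot be told apart from less RNA per cell. Markers of 8 cell types were therefore summed in each library and compared with two-sided exact permutation tests, adjusted over the 8 lists. Markers of the oligodendrocyte lineage were present in every library, with Olig1, which is expressed throughout this lineage, at 1214 CPM in siNC. Gfap, the astrocyte filament gene, was at 4777 CPM. The cultures labelled as OLs thus also held much RNA of astrocyte marker genes.

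Astrocyte markers summed to 8247 to 8949 CPM in the siNC libraries and to 5295 to 5977 CPM in the siEgr2 libraries, without overlap. The log2 difference of -0.60 had an exact permutation p of 0.00216 (adjusted p = 0.00432). All 10 markers were tested, and 5 of 10 fell with 0 rising, while 8 were lower and 0 higher at an unadjusted p under 0.05 and DESeq2 and limma-voom each called 6 lower and 0 higher. The largest falls were those of Slc1a3 (-0.85, SE 0.037), Aqp4 (-0.80, SE 0.040) and Aldh1l1 (-0.74, SE 0.064), and Gfap fell by 0.56 (SE 0.035). Not all markers were lower to this extent, with S100b at -0.018, Aldoc at -0.34 and Sox9 at -0.40, named after their values were seen, and the median of the list was -0.58. For Gfap, the study's paper reports the other direction, an increase by quantitative PCR in its siEgr2 group of primary OLs. The reason for this difference in direction was not tested. For the precursor marker Pdgfra, the paper's quantitative PCR also reports an increase, and Pdgfra was higher here too, by 0.56 (SE 0.042). Other genes of that measurement were not compared here. The part of astrocyte RNA in the members' differences was not tested.

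As a description, each member was also set against the summed astrocyte markers of its own library, a ratio chosen after the marker sums were seen. Since this sum was lower in siEgr2 by 0.60 on the log2 scale, the division raises the log2 difference of any gene by about that much, and a value above 0 on this scale says only that a gene did not share the full difference of the sum. Abca1 was at 46.9 ± 3.07 CPM per 1000 CPM of astrocyte markers in siNC and at 38.0 ± 2.28 in siEgr2. On this scale its highest siEgr2 library was at 40.8 and its lowest siNC library at 41.6, and the log2 difference was -0.30. This value holds for this sum of markers only. Gfap, with a log2 fold change of -0.56, makes up 4777 of the 8649 CPM. The other markers of the list ran from -0.85 (Slc1a3) to -0.018 (S100b), and no other marker sum was used. Abcg1 (-0.19), Srebf1 (-0.14) and Clu (-0.12) were lower on average with overlapping libraries. Apoe, at 94.2 ± 9.09 and 94.7 ± 8.97, differed by 0.0085, and Scd1 by 0.053. The values of Nr1h2 (0.70), Mylip (0.73), Apod (0.32) and Nr1h3 (0.17) are shifted upward in the same way.

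The list of oligodendrocyte precursor markers also holds Olig1, Olig2 and Sox10, which mature OLs express as well, so its sum does not measure the precursor stage alone. Oligodendrocyte precursor markers summed to 5337 ± 133 CPM in siNC and 6403 ± 49.8 CPM in siEgr2, a log2 difference of 0.26 (exact permutation p = 0.00216, adjusted p = 0.00432). Of their 8 tested genes 2 rose, Cspg4 (0.56, SE 0.046) and Pdgfra (0.56, SE 0.042), and 0 fell. At an unadjusted p under 0.05, 7 of the 8 were higher and 0 lower, and 6 met the adjusted p threshold. DESeq2 called 3 higher and limma-voom 2, each with 0 lower, and the median log2 fold change of the list was 0.27. Myelinating OL markers went the other way, from 7780 ± 473 to 6986 ± 103 CPM, or -0.15 on the log2 scale (exact permutation p = 0.00216, adjusted p = 0.00432). Of these 10 genes edgeR, DESeq2 and limma-voom called 0, with 6 lower and 0 higher at an unadjusted p under 0.05. With library size in place of TMM, neither Cspg4 nor Pdgfra passed the fold change threshold, and the precursor difference was 0.080. The same setting gave -0.34 for myelinating OL markers, -0.78 for astrocyte, -0.39 for microglial, -0.41 for fibroblast and pericyte and -0.73 for ependymal markers. Whether these shifts take part in the members' differences was not tested.

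Markers of other cells were scarce or overlapped. Microglial markers, of which 4 of 10 could be tested and 0 were called, summed to 29.1 ± 2.06 and 25.4 ± 3.95 CPM. Aif1, a microglial marker, had no count in any library. Endothelial markers, led by Kdr at 25.6 CPM, summed to 30.3 ± 2.94 and 32.4 ± 4.37 CPM, with 3 of 6 tested, 0 called and Cldn5 without a count. For these 2 lists edgeR gave 0 genes at an unadjusted p under 0.05, and DESeq2 and limma-voom called 0. Fibroblast and pericyte markers, led by Col1a1 at 336 CPM, summed to 1169 ± 186 and 989 ± 70.1 CPM, and 3 of 8 fell, Rgs5 (-0.78), Acta2 (-0.57) and Pdgfrb (-0.56). At an unadjusted p under 0.05 in edgeR, 5 of the 8 were lower and 0 higher. For this list DESeq2 and limma-voom each called 3 lower and 0 higher. Neuronal markers, led by Map2 at 308 CPM, summed to 452 ± 102 and 486 ± 95.5 CPM, and 1 of 7 tested fell, Stmn2 (-0.91). The median log2 fold change of these 7 was 0.235, with 3 of them below 0. At an unadjusted p under 0.05 in edgeR, 2 were lower and 1 higher. The higher gene was Syt1 (0.31), named after its values were seen. DESeq2 and limma-voom each called 1 neuronal gene lower and 0 higher. The exact permutation p was 0.0606 for microglial, 0.359 for endothelial, 0.0519 for fibroblast and pericyte and 0.53 for neuronal markers. The endothelial and neuronal log2 differences, 0.092 and 0.11, were -0.090 and -0.075 with library size in place of TMM. They also moved when single libraries were left out. The neuronal value was 0.22 without siNC replicate 2, 0.16 without siEgr2 replicate 4, 0.065 without siEgr2 replicate 5 and 0.027 without siEgr2 replicate 1. The endothelial value was 0.039, 0.057 and 0.14 without siEgr2 replicates 5, 3 and 6 in turn. The summed ependymal markers were lower in every siEgr2 library, at 76.4 ± 12.7 against 52.0 ± 3.76 CPM (log2 difference -0.54, exact permutation p = 0.00216, adjusted p = 0.00432). Foxj1, at 69.2 CPM in siNC and 49.4 CPM in siEgr2, made up most of this sum, so the test mostly reflects Foxj1. The other genes are named after their values were seen. Ttr was at 28.3 CPM in siNC replicate 4 and at most 1.94 CPM in the other siNC libraries. Ccdc153, Tmem212, Kl and Folr1 had siNC means of at most 0.585 CPM. Of the ependymal genes, 0 of 4 tested were called by edgeR, DESeq2 or limma-voom, and 1 was lower at an unadjusted p under 0.05. The part of ependymal markers in the members' differences was not tested either.

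**Figure D3:**
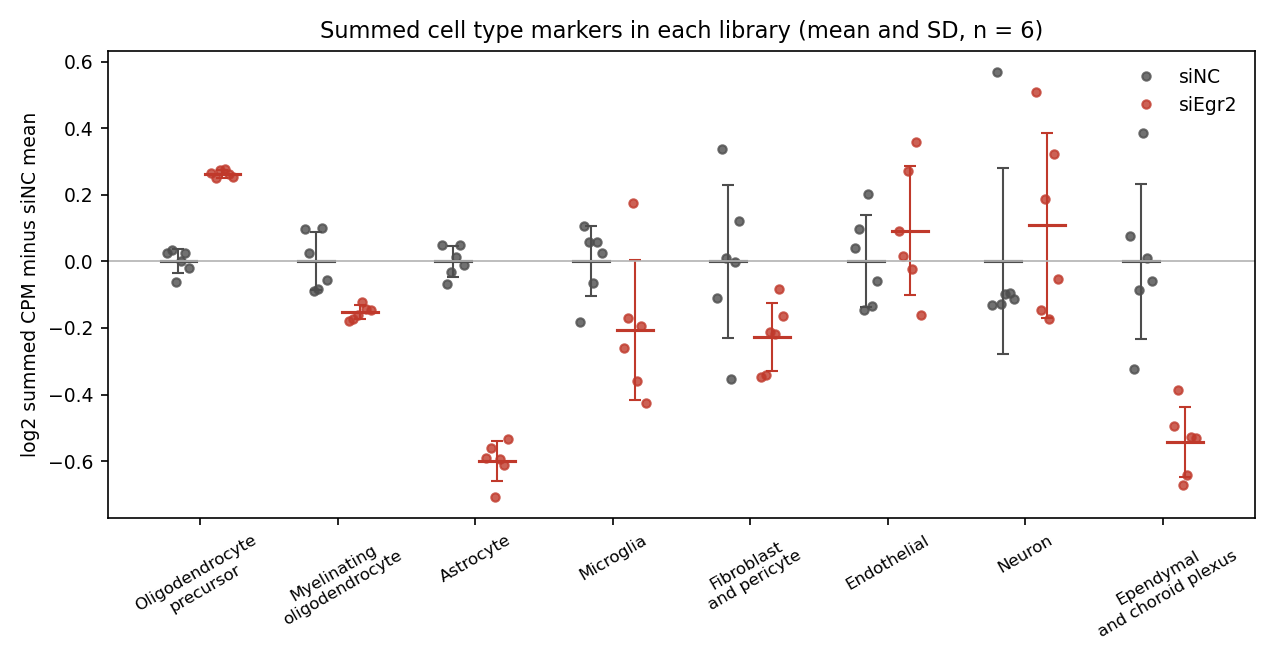
Each point is 1 library, with the log2 of the summed CPM of a marker list minus its siNC mean on the vertical axis, siNC in grey, siEgr2 in red and bars for the mean and SD of 6 libraries. Astrocyte markers lie 0.60 lower in siEgr2 and precursor markers 0.26 higher, while microglial, fibroblast, endothelial and neuronal markers overlap.

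RefSeq promoters on GRCm38.p6, each with 250 bases before and 50 after a start, were found for 7 of the members, at 12 starts. Those of Abcg1, Clu and Scd1 were not used here. They were searched on both strands for the element that LXR and its retinoid X receptor partner bind, a pair of AGGTCA units in the same direction spaced by 4 bases, allowing 3 mismatches over the 12 bases of the units. Only Abca1 and 1 of 3 starts of Srebf1 held such a match among these 12 promoters, each with 3 mismatches, as did 21.9% of all 32851 promoters. At the other starts of the members the closest sequence had 4 or 5 mismatches. A match in letters is a description and not a bound site.

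The matches of Abca1 and Srebf1 carry the same pair of units, GGGTTA and CGGTCA, although they lie on different chromosomes. Searched after the sites were seen, this pair with any 4 bases between occurred in 3 of the 32851 promoters (0.00913%), those of Abca1, Srebf1 and Fasn. All 3 are known LXR targets. The pair was thus found in 2 of the 7 members with a promoter and in 1 gene outside the members, and the stretches are shown so that these 3 can be compared. They are written along the gene's strand, upstream of the start, where the element reads in reverse, and capitals mark the units. The stretch of Abca1 is chr4:53159932-53159977, that of Srebf1 chr11:60210623-60210668 and that of Fasn chr11:120824742-120824787, all on the minus strand of GRCm38.p6.
Abca1: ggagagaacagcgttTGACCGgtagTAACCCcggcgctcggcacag
Srebf1: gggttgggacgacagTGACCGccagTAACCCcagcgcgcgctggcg
Fasn: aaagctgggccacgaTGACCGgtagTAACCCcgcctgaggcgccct

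Read in its own direction, the element is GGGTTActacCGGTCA in both Abca1 and Fasn and GGGTTActggCGGTCA in Srebf1, so Abca1 and Fasn have the same spacer. Along the gene's strand, the first base of the match lies 67 bases before the start of Abca1 at 53159895, 182 bases before that of Srebf1 at 60210471 and 225 bases before that of Fasn at 120824547. The log2 fold changes of these 3 genes were -0.90 (Abca1), -0.74 (Srebf1) and 0.014 (Fasn).

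Other motifs were searched in the 12 member promoters in the same way, and their counts are given beside the shares of all promoters. The sterol element core TCACCCCAC, held by 0.551% of all promoters, and the Egr element GCGGGGGCG or GCGTGGGCG, held by 3.47%, were in none of them, which says only that these letters are not in these windows. The GC box GGGCGG, held by 35.7% of all promoters, occurred 2 times in that of Abca1, 3 and 2 times at 2 starts of Srebf1 and 1 time in that of Mylip. The E-box CACGTG, held by 7.15%, occurred 1 time, in the promoter of Abca1.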

How the data were processed

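Values were whole-number read counts per gene symbol, which the authors deposited without normalization for 12 libraries of total RNA. The submitters' processing notes name the genome build mm10. The aligner, the counting program, strand use and any ribosomal RNA removal are not given in the sources used here. The table's 1 row without a gene name held no counts and was left out. No library was a copy of another within sampling noise, which gives a chi-square per gene near 1, while the 30 pairs within groups had 7.56 to 39.9. The lowest values were those of the siEgr2 pairs named in the report, 7.56 to 8.77, against 13.3 to 27.4 for the other siEgr2 pairs.

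In R 4.3.3, genes were filtered with filterByExpr of edgeR 4.0.16, scaled by TMM and compared with its quasi-likelihood test (robust, no covariate), with Benjamini-Hochberg adjustment over 16600 genes. The procedure was tested on simulated counts. Log2 values for likeness used CPM + 0.5. Lengths and positions came from GENCODE M21 on GRCm38. Values under 10 CPM are less precise in siEgr2, where fewer reads were counted.

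The members and lists were chosen with earlier results of these data known. Named genes were Egr2, the members and the 2 genes most like each member of at least 10 CPM. From each list they were the gene with the highest CPM in siNC and up to 4 called genes of at least 10 CPM. From each marker list they were the gene with the highest CPM and up to 3 called genes. Genes that the rule names but the text does not are not reported here. Genes outside this rule are marked as named after their values were seen.

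Alternatives were RLE, upper-quartile and library-size scaling, DESeq2 1.42.0, limma-voom (limma 3.58.1), 2 other filters, a replicate block, structural RNA genes left out, thinning to the smallest total, each library left out, no fold change threshold, and the longest transcript as length.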

Additional observations from a re-analysis of the deposited data

Results flagged for a closer look

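Within 42 groups of 6 libraries examined (the members, Egr2, the marker sums, the total counts and the 18S share), 4 had a library far from the others, where chance gives about 2.1. Abca1 was at 362.4 CPM in siNC replicate 4, below the other siNC libraries. The microglial marker sum was 32.8 CPM in siEgr2 replicate 3, above the other siEgr2 libraries. The neuronal marker sum was 659 CPM in siNC replicate 2, above the other siNC libraries, and Map2 was at 523 CPM in this library. The total was 39383014 counts in siNC replicate 6, above the other siNC libraries.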

How the results depend on the processing

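In each of 22 other settings of scaling, tool, filter, block, depth and left-out libraries, Abca1, Abcg1, Apoe, Clu, Srebf1 and Scd1 had log2 fold changes below 0. This is a description, since the members were chosen on this contrast. The number of called genes, 1281, was 1974 with library size only and 3300 with no fold change threshold. Lower genes (844) numbered 1737 and 1877 in these settings, and higher genes (437) 237 and 1423, with 266 higher after thinning. For the pathway outside the members, 8 lower genes became 14 and 18. On the synthesis side the 1 lower gene became 3 with library size only, 6 with no fold change threshold and 0 after thinning, where Scd3 was not tested, and 0 higher became 1 with no fold change threshold. The causes were not tested. Overlapping neighbours in the order of levels ran from 1 to 2 over the fits that each left out 1 siNC library, with 1 without siNC replicate 4.

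Libraries of the same replicate number did not deviate together, with r of 0.042, -0.039, -0.026, -0.0041, -0.019 and 0.041 for replicates 1 to 6, and only replicates 1 and 6 were most like their own number, so the numbers were not taken as pairs. With the replicate block Scd3 was not called, leaving 0 synthesis genes called lower.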

Other observations

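Some abundant genes had 1 library far from the others of its group while those lay close together. Of 4678 genes with a mean of at least 50 CPM, 98 had a library over 1.8 times above or below the median of the other 5, which themselves spanned less than 1.3 times. These limits were chosen after values of this kind were seen. There were 27 such cases above and 73 below, with 2 (siEgr2 replicate 1) to 13 (siNC replicate 4 and siEgr2 replicate 2) in each library. None of the 6 members of this level, Abca1, Apoe, Apod, Clu, Srebf1 and Scd1, was among them. Of the genes in the lists, Scd2, Dhcr7, Idi1 and Map2 were. Dhcr7 was at 94.8 CPM in siNC replicate 5 and at 173 to 192 CPM in the other siNC libraries.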
